A study of Arabidopsis thaliana with 24 samples.

Results

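GTE7 (AT5G65630) and GTE2 (AT5G10550) are Arabidopsis thaliana genes for bromodomain proteins, and AT5G10540 is the gene whose annotated model lies over GTE2 on the opposite strand. The 3 genes were taken by locus identifier from the 14888 loci of the authors' deposited table of small RNA comparisons. They were chosen for their values in that table, so their changes are given below as a description, without a test. The labels name 24 small RNA libraries from total RNA of inflorescences, 3 for each of 8 genotypes, all in the Col-0 ecotype. These genotypes are rrp4-2/urt1-1/dcl2CRISPR, rrp4-2/urt1-1/heso1-4, heso1-4/urt1-1, rrp4-2, ski2-5, urt1-1, heso1-4 and the wild type Col-0. The deposited table holds 13 mutant lines, and Col-0 was taken as the reference of each because the table lists every other labelled kind of line as a mutant and names no reference. The lines rrp4urt1dcl2het and rrp4urt1dcl2.B9 are both named for mutations in rrp4, urt1 and dcl2, like the labelled dcl2CRISPR genotype, and the labels do not tell which of them it is. Nor do they tell whether het stands for a heterozygous dcl2 allele. GKheso1 may be heso1-4, and the lines ski2urt1dcl2.123, ski2urt1dcl2.107, ski2.2, urt1.2 and heso1.3 match no label. For the double mutant the series' design text writes heso1-1 where the labels write heso1-4.

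Proteins of the GTE family carry a bromodomain, which binds acetylated lysines on histones, and an extra-terminal domain, and they belong to the BET group of chromatin readers. Small interfering RNAs of a protein-coding gene arise when its RNA is copied into double strands by an RNA-dependent RNA polymerase and cut by Dicer-like enzymes such as DCL2. The exosome, of which RRP4 is a core subunit, and its cytoplasmic helper helicase SKI2 degrade RNA from the 3' end, while URT1 and HESO1 add nucleotides to RNA 3' ends. AT5G10540 encodes a thimet metalloendopeptidase, a zinc protease that cuts short peptides.

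Both GTE genes lie on chromosome 5 (RefSeq TAIR10.1), and each is overlapped at its 3' end by a thimet oligopeptidase gene on the opposite strand. The extent of the overlap differs. GTE7 spans chr5:26225832-26229574 on the minus strand with 3 exons and 1773 coding bases. Its neighbour AT5G65620, on the plus strand, shares 72 exon bases with its 3' end. GTE2 spans chr5:3332995-3334913 on the minus strand with 3 exons and 1746 coding bases, and its annotated model holds no untranslated bases. AT5G10540 spans chr5:3324812-3334971 on the plus strand with 18 exons and 2106 coding bases, and its model runs over all 1919 bases of GTE2. Of these, 93 bases of AT5G10540 exon lie on GTE2 coding exon, and 1653 exon bases of GTE2 lie inside an intron of AT5G10540.

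**Figure D1:**
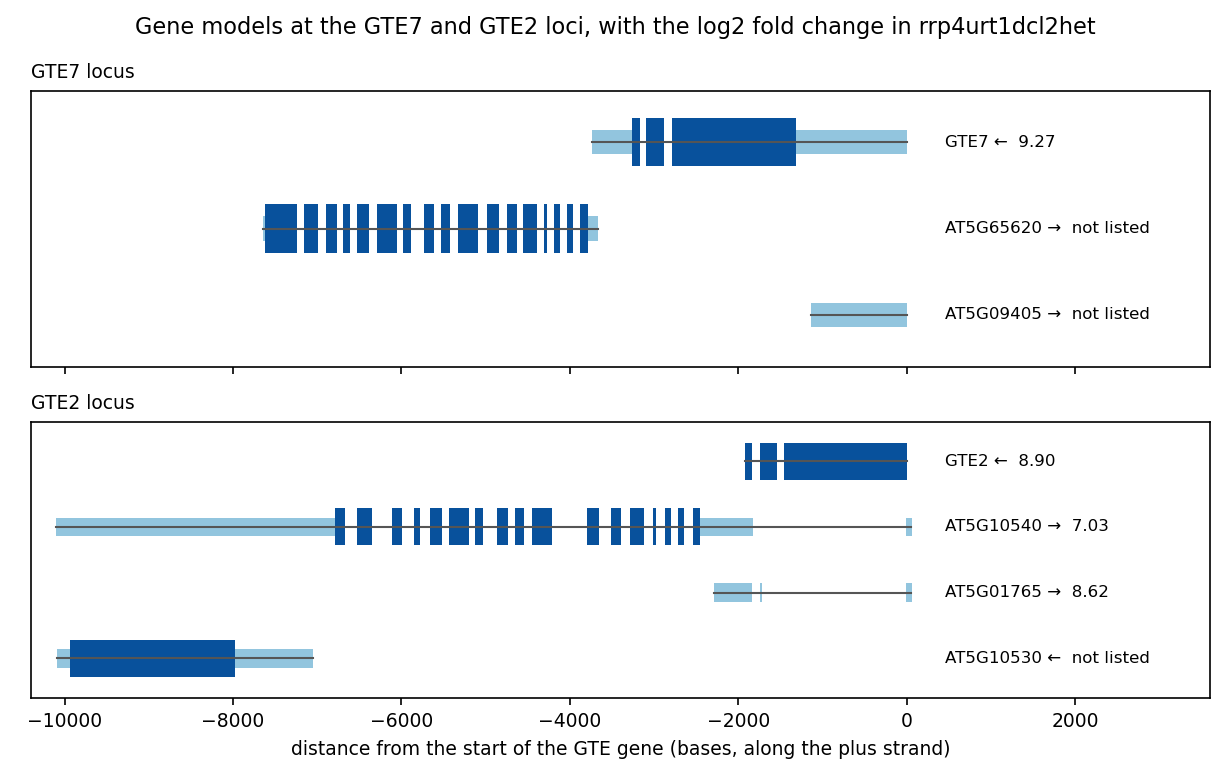
Gene models at the GTE7 locus (upper panel) and the GTE2 locus (lower panel), by distance in bases from the start of the GTE gene along the plus strand; dark boxes are coding exon, light boxes other exon, lines introns and arrows the strand. The number beside each name is the log2 fold change of small RNA in rrp4urt1dcl2het over Col-0, from 9.27 at GTE7 to 7.03 at AT5G10540, while AT5G65620, AT5G09405 and AT5G10530 were not listed.

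The coding sequences of GTE7 and GTE2 align over most of their length but are seldom identical over the length of a small RNA. An alignment gave 1356 identical bases of 1693 aligned, or 80.1%. Against the other 10 GTE genes, both had an identity of 60.7% to 68.8%. Of the 21-base words in the coding sequence, the 2 genes shared 10, which is 0.570% of the 1753 words of GTE7 and 0.579% of the 1726 words of GTE2. An exact match of that length would thus separate the 2 coding sequences at all but these words. Untranslated exon was not compared, and the mismatches allowed in mapping are not known, so separation of the mapped reads is not shown. The shared words lie in 3 runs of 25, 23 and 22 bases, which are shown because reads from them would match both genes; capitals mark the identical run and all are read 5′ to 3′ on the minus strand. The first run lies at chr5:26226317-26226345 in GTE7 and at chr5:3332998-3333026 in GTE2, inside the GTE2 exon that AT5G10540 also covers.
GTE7 run 1: cgCCATTTGTGGAAGCAAAAGAAGCCCaa
GTE2 run 1: ctCCATTTGTGGAAGCAAAAGAAGCCCcg
The second run lies at chr5:26228112-26228140 in GTE7 and at chr5:3334771-3334799 in GTE2, and holds a repeat of the unit ccctaa.
GTE7 run 2: ctcTTCAACCCTAACCCTAACCCTAAttt
GTE2 run 2: cttTTCAACCCTAACCCTAACCCTAActc
The third run lies at chr5:26228178-26228207 in GTE7 and at chr5:3334834-3334863 in GTE2, near the start of the coding sequence.
GTE7 run 3: atgcGGCGCCGTTTTTATGAGGAAATttac
GTE2 run 3: atgtGGCGCCGTTTTTATGAGGAAATacac
The most alike stretch of 90 coding bases, with 79 identical, lies at chr5:26227648-26227737 in GTE7 and at chr5:3334289-3334378 in GTE2. It is shown as the place where the genes come closest over a longer stretch, with identical bases in capitals.
GTE7 stretch: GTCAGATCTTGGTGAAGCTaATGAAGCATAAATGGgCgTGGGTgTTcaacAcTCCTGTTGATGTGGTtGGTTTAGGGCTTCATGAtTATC
GTE2 stretch: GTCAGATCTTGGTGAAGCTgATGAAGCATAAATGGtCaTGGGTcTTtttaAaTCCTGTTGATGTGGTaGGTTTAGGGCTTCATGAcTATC

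**Figure D2:**
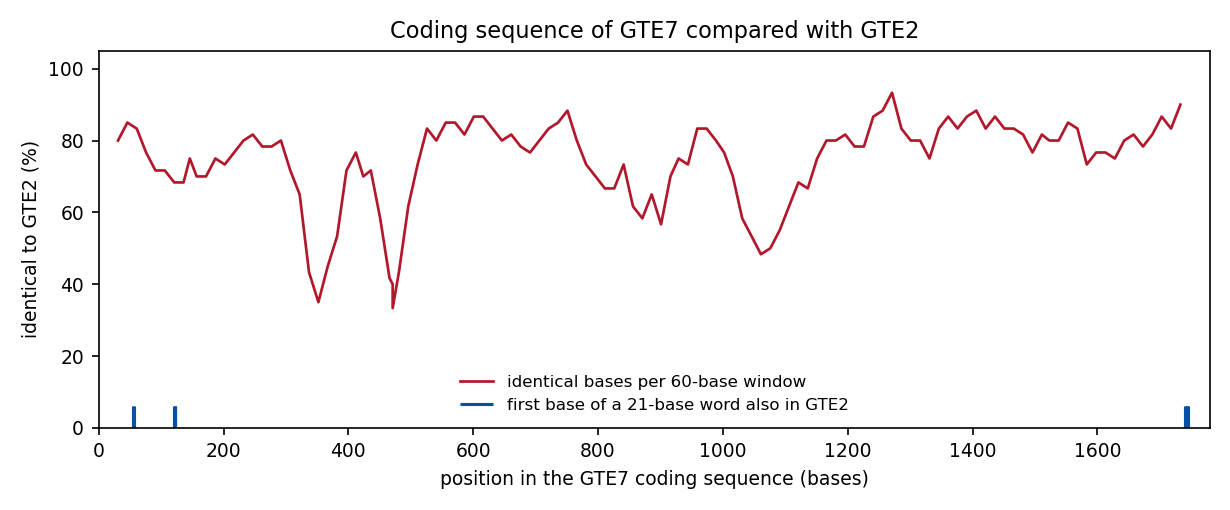
Share of bases identical to GTE2 (vertical axis, percent, in windows of 60 bases) along the coding sequence of GTE7 (horizontal axis, bases), with blue ticks at the first base of each 21-base word also present in GTE2. Identity ranged from 33.3% to 93.3%, and the 10 shared words sit in 3 places near both ends.

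The words were also searched in the coding sequences of all genes; other sequence of the genome was not searched. Among 27443 coding genes, GTE7 shared a word on either strand with 5 and GTE2 with 12, each counting the other, and neither shared more words with another gene than the 10 they share with each other. AT5G10540 shared words with 1 gene, its paralogue AT5G65620, to which it was identical at 88.1% of 2106 aligned bases with 119 of its 2086 words shared. Longer runs of 57 and 41 bases cross an exon border of AT5G10540, and their parts within 1 exon were not compared. Of the runs that cross no such border, the longest lies at chr5:3329307-3329338 on the plus strand. It is shown as 1 of several stretches whose reads would match both paralogues. All of it is in capitals because all of it is shared.
AT5G10540 run: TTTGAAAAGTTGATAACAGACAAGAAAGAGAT
The spliced transcripts were also searched for microRNA sites. Of 350 mature microRNA sequences in the RefSeq annotation, the best match to the spliced transcript of each gene had 5 mismatches, whereas 29.9% of 6331 coding genes of chromosome 5 held a site with at most 4. A match of letters, or its absence, says nothing about cleavage.

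Small RNA from all 3 genes was higher in rrp4urt1dcl2het than in Col-0, where 14.2% of 63565 tested loci were listed by the authors at an adjusted p under 0.05 from DESeq2, and 9.65% of the tested loci were listed as higher. All 3 were also listed as higher in rrp4-2/urt1-1/heso1-4, where 11.5% of tested loci were listed and 6.4% were listed as higher. In rrp4urt1dcl2.B9 (6.35% of tested loci listed, 5.13% as higher) and in rrp4-2 (4.46% listed, 3.45% as higher), GTE7 and GTE2 were listed as higher and AT5G10540 was not listed. In ski2urt1dcl2.123 (1.59% listed, 0.861% as higher), GTE7 alone was listed, as higher. None of the 3 was listed in the other 8 lines, where the listed share of tested loci was 3.17% in ski2urt1dcl2.107, 0.513% in ski2-5, 1.3% in ski2.2, 0.58% in heso1-4/urt1-1, 0.431% in urt1-1, 0.249% in urt1.2, 0.28% in GKheso1 and 0.175% in heso1.3. The 3 genes were chosen on these contrasts, so nothing is read from these counts against those shares. GTE2 was listed in the 4 lines with an rrp4 mutation and in no other. Its log2 fold change in rrp4-2 was 0.68, while the smallest changes that the other lines would list ran from 0.68 to 0.84. A change of that size could thus be missed in the other lines, and a link to rrp4 was not tested. No value of a single library was used here, so the depth is unknown and the number of libraries that share a direction cannot be given. The tissue is a whole inflorescence, in which a change in the number of cells of a type cannot be told apart from a change in RNA per cell, and the values hold no read length.

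**Figure D3:**
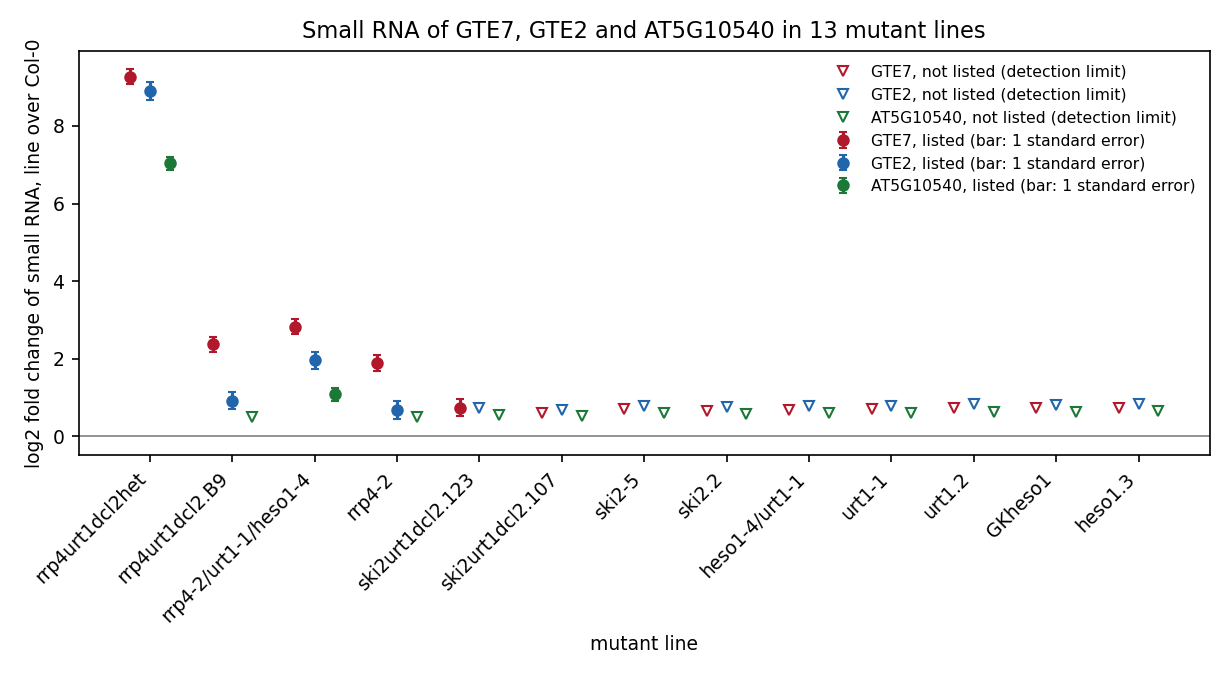
Log2 fold change of small RNA over Col-0 (vertical axis) of GTE7, GTE2 and AT5G10540 in the 13 mutant lines (horizontal axis); filled circles are values of the authors' deposited table with bars of 1 standard error recovered from its p-values, and open triangles are detection limits where a gene was not listed. The 3 values of rrp4urt1dcl2het, 9.27, 8.90 and 7.03, stand far above every other one, of which the next is 2.83.

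GTE7 was listed as higher in 5 lines, the most of the 3 genes. In the authors' deposited table its mean normalised count over all libraries was 2718. For each of the 3 genes this mean includes rrp4urt1dcl2het, where the gene rose most, so it does not give the level in the other lines. Small RNA of GTE7 rose by a log2 fold change of 9.27 in rrp4urt1dcl2het, a factor of 616 over Col-0. This was the largest rise among the 9019 listed changes of that line in the authors' deposited table. The p is written there as 0, so no error follows from it; the standard error (SE) of GTE7 in other lines was 0.20, and a p that small bounds it at 0.24. The other lines changed far less. The authors' deposited table gave 2.37 ± 0.20 (SE, adjusted p = 4.9e-31) in rrp4urt1dcl2.B9, a 5.18-fold change. It was 2.83 ± 0.20 (SE) in rrp4-2/urt1-1/heso1-4, a 7.09-fold change with an adjusted p of 2.1e-44 in the authors' deposited table from DESeq2. For rrp4-2 alone the authors' deposited table held 1.89 ± 0.20 (SE, adjusted p = 3.2e-19), a 3.71-fold change. The smallest listed value was 0.74 ± 0.21 (SE) in ski2urt1dcl2.123, a 1.68-fold change with an adjusted p of 0.018 in the authors' deposited table from DESeq2. The line ski2urt1dcl2.107, named for mutations in the same genes, did not list GTE7, with a detection limit of 0.60. This limit takes its SE from other lines and can be too low there. At URT1, for example, the SE was 0.35 in ski2urt1dcl2.107 and 0.29 in ski2urt1dcl2.123. The 2 lines are therefore not shown to differ at GTE7. Over the 8 lines that did not list GTE7, the limit ran from 0.60 to 0.74, so that smaller changes would not have been seen there. The table holds from 50.9% to 82.8% of the ranks up to its threshold, and a locus missing from it can also lie above its limit.

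GTE2 followed GTE7 at a lower level of change. Its mean normalised count was 1218 in the authors' deposited table. In rrp4urt1dcl2het it rose by 8.90 on the log2 scale, a factor of 477 over Col-0. This was the second largest rise of that line in the authors' deposited table, again with a p written as 0 (SE 0.22 from other lines, at most 0.23). The remaining lines gave small to moderate rises. In rrp4urt1dcl2.B9 the log2 fold change was 0.92 ± 0.22 (SE, adjusted p = 0.0013 by DESeq2), a 1.89-fold change in the authors' deposited table. In rrp4-2/urt1-1/heso1-4 it was 1.97 ± 0.22 (SE, adjusted p = 2.5e-17 by DESeq2), a 3.91-fold change in the authors' deposited table. The rrp4-2 single mutant had 0.68 ± 0.22 (SE), a 1.61-fold change whose adjusted p of 0.041 in the authors' deposited table from DESeq2 lay just under the threshold. Detection limits of GTE2 in the 9 lines that did not list it ran from 0.68 to 0.84, so its value in rrp4-2 was about as large as the smallest change that could be seen elsewhere. The lowest of these limits, in ski2urt1dcl2.107, can be too low, as for GTE7.

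AT5G10540, the metalloendopeptidase gene, was listed in 2 lines. The authors' deposited table gave it a mean normalised count of 1446. It rose by 7.03 in rrp4urt1dcl2het, a factor of 131 over Col-0. This rise ranked 19 among the listed rises of that line in the authors' deposited table (p written as 0, SE 0.17 from another line, at most 0.18). In rrp4-2/urt1-1/heso1-4 it rose by 1.09 ± 0.17 (SE, adjusted p = 1.2e-08 by DESeq2) in the authors' deposited table, the smallest rise of the 3 genes there. Its detection limits were 0.50 in rrp4urt1dcl2.B9 and 0.51 in rrp4-2, the lines where GTE2 had 0.92 and 0.68 in the authors' deposited table. Over the 11 lines without it the limit ran from 0.50 to 0.65.

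Values in rrp4urt1dcl2het lay 5.95 or more above those of every other line that listed the same gene, on the log2 scale. Differences between lines are given as a description with a root-sum-of-squares SE and a 95% interval, as if the lines were independent, although they share the Col-0 libraries and the genes were chosen on these values. GTE7 was higher in rrp4urt1dcl2het by 6.89 ± 0.28 (SE) than in rrp4urt1dcl2.B9 on the log2 scale, by 6.44 ± 0.28 (SE) than in rrp4-2/urt1-1/heso1-4 and by 7.38 ± 0.28 (SE) than in rrp4-2. For GTE2 these differences were 7.98 ± 0.32, 6.93 ± 0.31 and 8.21 ± 0.32 (SE). AT5G10540 allowed 1 such difference, 5.95 ± 0.24 (SE), between rrp4urt1dcl2het and rrp4-2/urt1-1/heso1-4. The 2 lines named for rrp4, urt1 and dcl2 thus differed more from each other at the GTE genes than rrp4urt1dcl2.B9 did from rrp4-2.

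Among the other rrp4 lines the order was rrp4-2/urt1-1/heso1-4, rrp4urt1dcl2.B9 and rrp4-2, for both GTE genes. GTE7 in rrp4-2/urt1-1/heso1-4 exceeded rrp4-2 by 0.94 ± 0.28 (SE, interval 0.39 to 1.48). GTE2 exceeded it by 1.28 ± 0.31 (SE, interval 0.67 to 1.90). The listed rise of both genes was thus larger in rrp4-2/urt1-1/heso1-4 than in rrp4-2. The intervals here are no test of that, since the genes were chosen on these values and the lines share the Col-0 libraries. The line heso1-4/urt1-1 listed neither, with detection limits of 0.69 for GTE7 and 0.78 for GTE2, so smaller changes could be present there. Whether the mutations act together was not tested. For neighbours in the order, 3 of the 4 intervals held 0. For GTE7, rrp4-2/urt1-1/heso1-4 minus rrp4urt1dcl2.B9 was 0.45 ± 0.28 (SE, interval -0.09 to 1.00), and rrp4urt1dcl2.B9 minus rrp4-2 was 0.48 ± 0.28 (SE, interval -0.06 to 1.02). For GTE2, rrp4-2/urt1-1/heso1-4 exceeded rrp4urt1dcl2.B9 by 1.05 ± 0.31 (SE, interval 0.44 to 1.66), while rrp4urt1dcl2.B9 minus rrp4-2 was 0.24 ± 0.32 (SE, interval -0.38 to 0.86). Last, GTE7 in rrp4-2 exceeded ski2urt1dcl2.123 by 1.15 ± 0.29 (SE, interval 0.59 to 1.71).

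Within a line, the 3 genes kept the order GTE7, GTE2, AT5G10540 wherever they were listed. The difference in log2 fold change of GTE7 minus GTE2 was 0.37 ± 0.30 (SE) in rrp4urt1dcl2het, close to its error. It was 1.45 ± 0.30 (SE) in rrp4urt1dcl2.B9, 0.86 ± 0.29 (SE) in rrp4-2/urt1-1/heso1-4 and 1.21 ± 0.30 (SE) in rrp4-2. So the 2 bromodomain genes stood nearest together in rrp4urt1dcl2het, where the rise was greatest. No trend is read among the other 3 lines, since the gap was widest in rrp4urt1dcl2.B9 while both genes rose least in rrp4-2. GTE2 minus AT5G10540 was 1.86 ± 0.28 (SE) in rrp4urt1dcl2het and 0.88 ± 0.28 (SE) in rrp4-2/urt1-1/heso1-4.

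The place of the 3 genes among all loci differed between the lines. In rrp4urt1dcl2het the authors' deposited table listed 633 loci with a mean normalised count above 1000, of which 19 had a log2 fold change above 5. That mean is over all libraries, so a high count in this line can itself carry a locus past 1000. Nothing is therefore read from the place of the 3 genes among these loci. The median over all listed higher loci was 0.96 there in the authors' deposited table. Only 4 entries of the whole table have a p written as 0, all in rrp4urt1dcl2het: GTE7, GTE2, AT5G10540 and the antisense locus AT5G01765. In the other lines the bromodomain genes ranked lower. Ranks run from the largest rise, and the listed changes include falls. By log2 fold change in the authors' deposited table, GTE7 ranked 308 among 7538 listed changes of rrp4-2/urt1-1/heso1-4, of which 4202 were rises. It ranked 352 among 4034 (3263 rises) of rrp4urt1dcl2.B9, 436 among 2836 (2191 rises) of rrp4-2 and 389 among 1010 (547 rises) of ski2urt1dcl2.123. In ski2urt1dcl2.123 the median rise was 1.05, above the 0.74 of GTE7. GTE2 ranked 819, 1943 and 1710 in rrp4-2/urt1-1/heso1-4, rrp4urt1dcl2.B9 and rrp4-2 by the authors' deposited table. AT5G10540 ranked 2440 in rrp4-2/urt1-1/heso1-4. The median of the listed higher loci was 1.04 in rrp4urt1dcl2.B9 and 1.01 in rrp4-2 in the authors' deposited table, so GTE2 lay below the median rise in both of these lines.

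**Figure D4:**
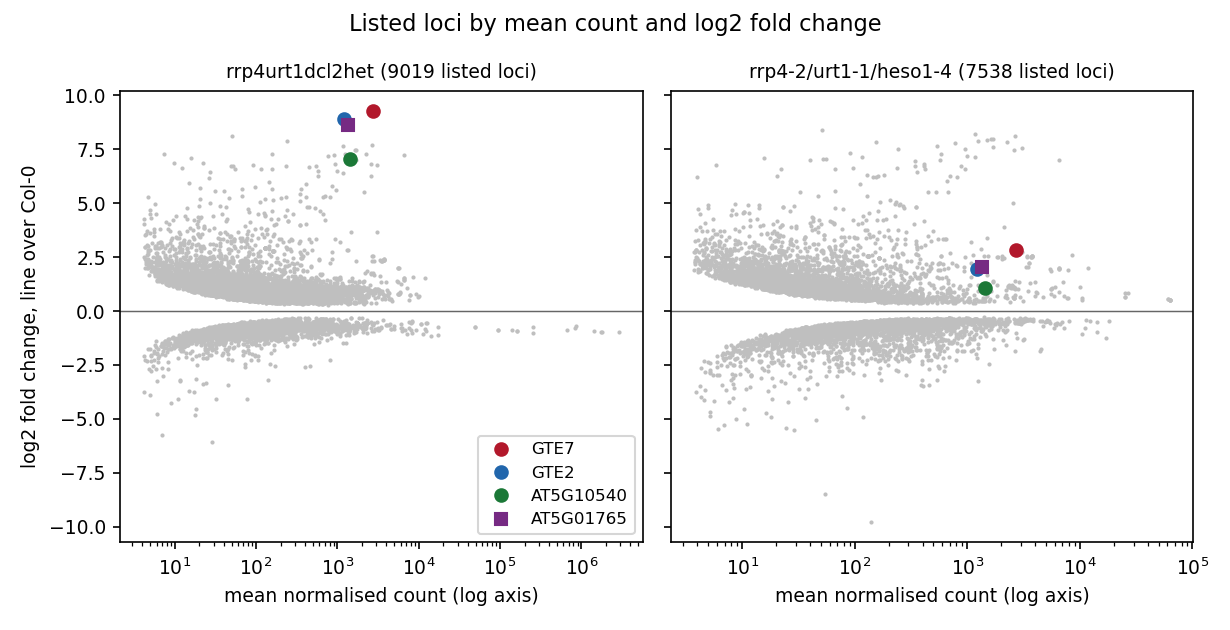
Listed loci of rrp4urt1dcl2het (left) and rrp4-2/urt1-1/heso1-4 (right), by mean normalised count in the authors' deposited table (horizontal log axis) and log2 fold change over Col-0 (vertical axis); the 3 genes and the antisense locus AT5G01765 are coloured. GTE7, GTE2 and AT5G01765 sit above all other loci on the left at 9.27, 8.90 and 8.62, and among many loci on the right at 2.83, 1.97 and 2.04.

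The overlapping loci at GTE2 moved with it. AT5G01765, an antisense long noncoding RNA at chr5:3332631-3334971 on the plus strand, spans GTE2 and shares 111 exon bases with it. Of its 533 exon bases, 515 lie in exons of AT5G10540. In rrp4urt1dcl2het AT5G01765 rose by 8.62 in the authors' deposited table, between GTE2 at 8.90 and AT5G10540 at 7.03. It had 1.01 ± 0.20 (SE) in rrp4urt1dcl2.B9, 2.04 ± 0.20 (SE) in rrp4-2/urt1-1/heso1-4 and 0.68 ± 0.20 (SE) in rrp4-2 in the authors' deposited table, close to GTE2 in each. The line ski2urt1dcl2.107, where GTE2 was not listed, had 0.75 ± 0.23 (SE) for AT5G01765 in the authors' deposited table. Whether counting used the strand, and how reads inside several gene models were assigned, is not given in the sources used here, so small RNA of GTE2, AT5G10540 and AT5G01765 cannot be told apart and these are not 3 independent measurements. AT5G10530, a lectin receptor kinase gene whose 3045 bases all lie within exons of AT5G10540 far from GTE2, was not listed in any line.

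The loci that overlap GTE7 were not listed in rrp4urt1dcl2het. AT5G09405, a noncoding RNA on the plus strand whose 1138 bases all lie in GTE7 exon outside the coding sequence, was listed in 2 other lines. It rose by 1.98 ± 0.46 (SE) in rrp4urt1dcl2.B9 and by 1.77 ± 0.47 (SE) in rrp4-2/urt1-1/heso1-4, at a mean normalised count of 9.11 in the authors' deposited table. The neighbour AT5G65620 shares 72 bases with the 3' end of GTE7, whereas the model of AT5G10540 runs over all of GTE2. AT5G65620 was not listed in any line. The third thimet oligopeptidase gene, AT1G67690, was not listed either. The only listed gene of that family was AT5G10540, which was chosen for its values.

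Genes were also taken by position, 5 on each side of each GTE gene. Of the 10 nearest to GTE7, 0 were listed in rrp4urt1dcl2het (14.2% of all tested loci listed). In each of rrp4urt1dcl2.B9 (6.35% listed, 5.13% as higher) and rrp4-2/urt1-1/heso1-4 (11.5% listed, 6.4% as higher), 3 of the 10 were listed as higher. Besides AT5G09405 these were AT5G65613, with 2.06 ± 0.61 and 2.24 ± 0.62 (SE) in those lines, and the transcription factor gene bHLH093, with 1.28 ± 0.29 and 1.05 ± 0.31 (SE), in the authors' deposited table. The mean normalised count of AT5G65613 was low, at 5.27 in the authors' deposited table. Around GTE2, 4 of the 9 nearest genes other than AT5G10540 were listed in some line, AT5G01765 among them. Among all loci, 14888 were listed in some line, with 32432 to 78096 loci tested per line. In rrp4urt1dcl2het 3 of the 9 were listed, in rrp4urt1dcl2.B9 2, in rrp4-2/urt1-1/heso1-4 3 and in rrp4-2 3 (4.46% of all tested loci listed). The noncoding locus AT5G00360, which starts beyond the 5′ end of GTE2, had 1.48 ± 0.41 (SE) in rrp4urt1dcl2het in the authors' deposited table. It had 2.28 ± 0.40 (SE) in rrp4urt1dcl2.B9, 2.57 ± 0.41 (SE) in rrp4-2/urt1-1/heso1-4 and 1.77 ± 0.41 (SE) in rrp4-2 in the authors' deposited table, so its value in rrp4urt1dcl2het was not above those of the other rrp4 lines. The tRNA gene AT5G10525 was lower in 3 lines, by -0.73 ± 0.17 (SE) in rrp4urt1dcl2het, -0.56 ± 0.17 (SE) in rrp4-2 and -0.59 ± 0.17 (SE) in ski2.2 in the authors' deposited table. In the authors' deposited table the small nucleolar RNA locus AT5G01785 rose by 0.90 ± 0.29 (SE) in rrp4-2/urt1-1/heso1-4.

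The other bromodomain genes of the family had smaller listed values than GTE7 and GTE2 had in rrp4urt1dcl2het. Of the 12 GTE genes, 5 were listed in some line and 7 in none. The 5 include GTE7 and GTE2, which were chosen for their values. Among all loci, 14888 were listed in some line, with 32432 to 78096 loci tested per line, and nothing is read from the count of 5. In rrp4urt1dcl2het, where 14.2% of all tested loci were listed, 1 of the other 10 was listed, GTE9, with 0.73 ± 0.22 (SE, adjusted p = 0.0063 by DESeq2) in the authors' deposited table. In rrp4urt1dcl2.B9 (6.35% of loci listed, 5.13% as higher), 2 of the 10 were higher, GTE6 with 0.88 ± 0.22 (SE) and GTE10 with 0.67 ± 0.22 (SE) in the authors' deposited table. The same 2 genes were higher in rrp4-2/urt1-1/heso1-4 (11.5% listed, 6.4% as higher), GTE10 with 0.92 ± 0.23 (SE) and GTE6 with 0.70 ± 0.23 (SE) in the authors' deposited table. GTE6 fell by 1.42 ± 0.34 (SE, adjusted p = 0.0015 by DESeq2) in ski2urt1dcl2.107 (3.17% listed) in the authors' deposited table, and the remaining 9 lines listed 0 of the 10. Counts of 0 to 2 among 10 genes are not read as a result about the family. GTE7 and GTE2 were chosen for high values, so their contrast with the rest of the family is no test. In rrp4urt1dcl2.B9 GTE2 had 0.92 ± 0.22 (SE), close to GTE6, while GTE7 had 2.37 ± 0.20 (SE). In rrp4-2/urt1-1/heso1-4 GTE2 with 1.97 ± 0.22 (SE) and GTE7 with 2.83 ± 0.20 (SE) lay above GTE6 and GTE10 in the authors' deposited table. RefSeq names GTE9 and GTE10 as BET9 and NPX1.

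SMXL4, SMXL5 and NIA2 are known for siRNAs of 22 bases made by DCL2 in RNA decay mutants, and are set beside the GTE genes for comparison. SMXL4, a gene of phloem development, rose by 6.69 ± 0.52 (SE) in rrp4urt1dcl2het and by 6.37 ± 0.52 (SE) in rrp4urt1dcl2.B9 in the authors' deposited table. It had 1.87 ± 0.53 (SE) in rrp4-2/urt1-1/heso1-4, 2.80 ± 0.52 (SE) in rrp4-2, 5.87 ± 0.52 (SE) in ski2urt1dcl2.123 and 6.27 ± 0.57 (SE) in ski2urt1dcl2.107 in the authors' deposited table. SMXL4 thus had its 4 largest values, 5.87 to 6.69, in the lines named for a dcl2 mutation together with urt1. Among these lines GTE7 had 9.27 in rrp4urt1dcl2het, 2.37 in rrp4urt1dcl2.B9 and 0.74 in ski2urt1dcl2.123. GTE2 had 8.90 in rrp4urt1dcl2het and 0.92 in rrp4urt1dcl2.B9, and ski2urt1dcl2.107 listed neither GTE gene. SMXL5 had 7.21 ± 0.81, 6.66 ± 0.81, 5.01 ± 0.81 and 4.00 ± 0.91 (SE) in rrp4urt1dcl2het, rrp4urt1dcl2.B9, ski2urt1dcl2.123 and ski2urt1dcl2.107 in the authors' deposited table. The other rrp4 lines did not list it. For the nitrate reductase gene NIA2 the authors' deposited table gave 1.13 ± 0.32 (SE) in rrp4urt1dcl2het, 1.14 ± 0.32 (SE) in rrp4urt1dcl2.B9 and 1.07 ± 0.33 (SE) in rrp4-2/urt1-1/heso1-4, and NIA1 was not listed. No test of these differences between genes was made, since all come from the contrasts used to choose the GTE genes.

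**Figure D5:**
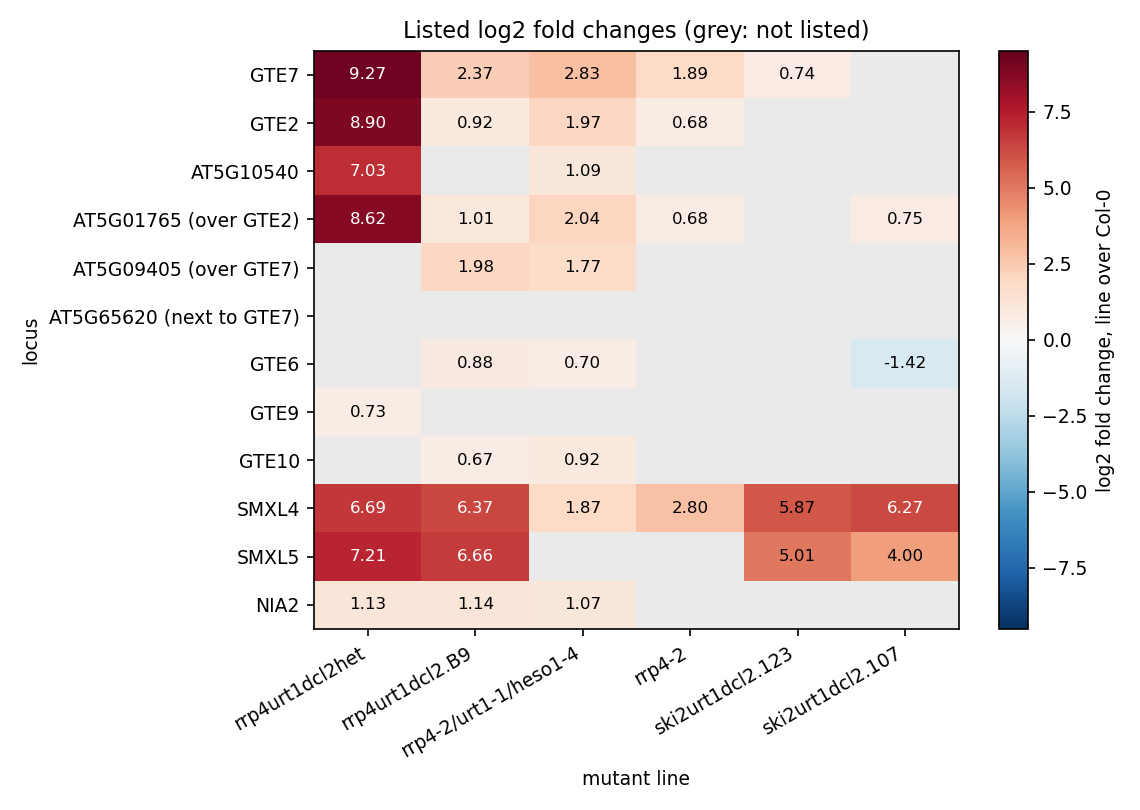
Log2 fold change of small RNA over Col-0 (colour and number) of the 3 genes, loci next to or over them, other listed GTE genes and SMXL4, SMXL5 and NIA2 (rows) in the 6 lines with most entries for them (columns); grey cells mark loci that the authors' deposited table does not list in that line. SMXL4 is at 6.69 and 6.37 in rrp4urt1dcl2het and rrp4urt1dcl2.B9, where GTE7 is at 9.27 and 2.37.

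Loci whose values were most like those of each gene were ranked by the Euclidean distance of log2 fold changes over the 13 lines, with 0 for a line that did not list the locus. GTE2 was nearer to GTE7 than any other locus, at 2.24. From GTE7, next came AT5G01765 at 2.34, AT5G56060 at 4.55, the transcription factor gene MYB4 at 4.55, EXO at 4.64 and the transposable element AT1TE77065 at 4.66. For GTE2 the nearest were AT5G01765 at 0.80, AT1TE77065 at 2.80, AT5G56060 at 3.37, AT2G09620 at 4.26 and AT3TE43785 at 4.88. AT5G10540 lay 2.36 from GTE2 and nearest to AT1TE77065 at 1.11, AT2G09620 at 2.05, AT5G01765 at 2.34, AT5G56060 at 2.36 and AT5G51930 at 3.47. These distances rest mostly on the single line rrp4urt1dcl2het, the only one to list AT1TE77065 and AT2G09620. The mean normalised counts of AT1TE77065, AT2G09620 and AT3TE43785 were low, at 7.33, 4.74 and 5.73, so their fold changes are less certain than those of the 3 genes.

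The mutated genes were read for small RNA alone, which does not check a mutation. DCL2 was listed in rrp4urt1dcl2het only, at -0.77 ± 0.22 (SE), and not in rrp4urt1dcl2.B9 or the ski2urt1dcl2 lines, in the authors' deposited table. URT1 was lower in all 7 lines that listed it, with values of -0.84 ± 0.25 (SE) in rrp4urt1dcl2het, -1.12 ± 0.26 (SE) in rrp4urt1dcl2.B9 and, in rrp4-2/urt1-1/heso1-4, -0.81 ± 0.27 (SE) in the authors' deposited table. The other 4 gave -1.51 ± 0.29 (SE) in ski2urt1dcl2.123, -1.74 ± 0.35 (SE) in ski2urt1dcl2.107, -1.31 ± 0.28 (SE) in heso1-4/urt1-1 and -1.31 ± 0.27 (SE) in urt1-1 in the authors' deposited table. HESO1 was higher in 3 lines, by 1.14 ± 0.26 (SE) in rrp4-2/urt1-1/heso1-4, 0.99 ± 0.26 (SE) in heso1-4/urt1-1 and 4.60 ± 0.24 (SE) in GKheso1 in the authors' deposited table. RRP4 and SKI2 were not listed in any line.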

How the data were processed

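The data were a table, deposited by the authors, of comparisons in 13 mutant lines, with no values per library. Per the submitters' processing notes, the tools were STAR 2.6.0a, cutadapt 2.4, DESeq2 and featureCounts (Subread 1.6.3) and the build TAIR10; order, parameters, annotation and strand setting are not given in the sources used here. Per the file headers, the authors deposited for each locus a mean normalised count (the signal, 1 value per locus in all lines), a log2 fold change, an unadjusted p-value and an adjusted p-value under 0.05. Columns of per-sample values left unused numbered 0.

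The tested number of loci per line follows from how adjusted and unadjusted p relate under Benjamini-Hochberg adjustment. Each SE is the size of the log2 fold change divided by the normal quantile of its p. Where p is written as 0, the SE is the median for that locus over the remaining lines. A detection limit is that median SE times the quantile at the largest listed p of the line. It is too low in a line whose errors are larger than that median. The recovery was tested on 3 simulated listings, of 60000, 70000 and 30000 loci, and returned the simulated tested number in all 3. No test of the members was run. Gene models and sequences came from RefSeq TAIR10.1, matched by locus identifier because the table holds no coordinates; coding sequences were aligned with Biopython 1.88 and values handled with pandas 2.3.3 and scipy 1.17.1 under Python 3.11.15. Gap opening and extension scored -5 and -0.5, a match 2 and a mismatch -1.

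The members and gene lists were chosen with earlier results of these data known. Named are the 3 members, listed genes of the GTE and thimet oligopeptidase families and among the 5 flanking genes on each side, SMXL4, SMXL5, NIA1 and NIA2, and the 5 loci nearest to each member in log2 fold change. AT5G65620, AT5G10530 and the mutated genes were named beside them for their overlap or genotype. Alternatives were stricter adjusted p thresholds of 0.01 and 0.001, 10 flanking genes, the largest SE and a cosine distance.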

Additional observations from a re-analysis of the deposited data

How the results depend on the processing

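At an adjusted p under 0.001, GTE2 kept 2 of its 4 lines (3 under 0.01), GTE7 4 of its 5 and AT5G10540 both. Under 0.01, 1 other GTE gene was listed in each of rrp4urt1dcl2.B9 and rrp4-2/urt1-1/heso1-4, against 2 at 0.05. Of the genes flanking GTE2, 1 stayed listed in rrp4-2 at 0.01, against 3, and 0 in ski2urt1dcl2.107 and ski2.2, against 1 in each. With 10 flanking genes on each side, GTE7 had 1 listed in rrp4urt1dcl2het, against 0, and GTE2 had 5 listed in each of rrp4urt1dcl2het and rrp4-2/urt1-1/heso1-4, against 3. A stricter threshold or a wider window changes these counts by construction. Using the largest SE of other lines where p is written as 0 touches only the errors, and the SE of the 6 GTE7 and GTE2 differences from rrp4urt1dcl2het then reached 0.29 and 0.32; AT5G10540 had 1 other line, so no alternative. By cosine distance, 1, 1 and 0 of the 5 loci nearest to GTE7, GTE2 and AT5G10540 were the ones named. No paired analysis was possible because the table holds no values of single libraries. For the same reason no replicate could be left out, and depth limits cannot be given. The table is partial, so a missing entry is not shown to be unchanged.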
